A study of Homo sapiens with 12 samples.

Results

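The genes described here are the HOX genes and the developmental transcription factors of the DLX, MSX, PITX, LHX and PAX families and the SIX-family, measured in cultured human mammary acini. Members were the probe sets whose platform annotation gave exactly 1 symbol made of HOXA, HOXB, HOXC, HOXD or one of those family names followed by a number alone. The rule used no measured value and found 50 genes of 11963, with 76 of 22215 probe sets. There were 31 probe sets of 24 HOX genes and 45 probe sets of 26 genes of the other families, and 17 of the 50 genes had more than 1 probe set. HOXA was represented by HOXA2 alone, HOXB by 9 genes, HOXC by 7 and HOXD by 7.

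RNA came from HMT-3522 S1 cells, an established line of non-neoplastic human mammary epithelium that forms acini in basement membrane gel. The 12 arrays fell into 3 groups of 4. Aza cultures received 10 µM 5-aza-2'-deoxycytidine, which traps and depletes DNA methyltransferases, and AGA cultures received 10 µM 18-alpha-glycyrrhetinic acid, which blocks gap junction communication. Both drugs were present from plating for 10 days, and the labels call both groups not polarized. Vehicle cultures are labelled polarized. In every group the cells were at passage 55 to 60 and were plated at 35000 per cm2 with 5% Matrigel, with EGF for 8 days and without it for 48 h. All results therefore concern 1 line, and since no label says how separate the replicate cultures were, p-values measure the spread between these samples.

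HOX genes lie in clusters, their order along the chromosome follows their order of use along the body axis, and adult cells often keep part of that position code. MSX genes respond to BMP signals where epithelium meets mesenchyme, including the embryonic mammary bud, and DLX genes act in limb and branchial arch outgrowth. PAX proteins carry a paired domain, with a homeodomain in only some of them, and SIX-family proteins act with EYA partners in the formation of kidney, muscle and sense organs. PITX and LHX genes are best known from pituitary, limb and nervous system development. Many of these genes have promoters rich in CpG, the dinucleotide that DNA methyltransferases modify, and Polycomb complexes hold many of them silent in adult cells.

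Because Aza acts on CpG methylation, the RefSeq promoter windows of 3 members are shown, each 250 bases before to 50 after an annotated start in GRCh38.p14, with CpG in capitals. MSX1, at chr4:4859415-4859714 on the + strand, was the member with the lowest p for AGA minus vehicle and for Aza minus AGA, and its window held 31 CpG. DLX2, at chr2:172102851-172103150 on the - strand, was above background in every group and held 30. PAX8, at chr2:113278872-113279171 on the - strand, was above background in every group by 3 of its 8 probe sets and held 13.
MSX1: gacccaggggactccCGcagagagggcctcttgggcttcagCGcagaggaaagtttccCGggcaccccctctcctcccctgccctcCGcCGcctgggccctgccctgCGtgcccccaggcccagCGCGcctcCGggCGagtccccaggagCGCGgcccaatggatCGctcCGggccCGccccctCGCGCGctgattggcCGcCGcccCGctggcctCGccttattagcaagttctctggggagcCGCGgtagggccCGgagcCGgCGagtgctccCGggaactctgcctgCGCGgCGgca
DLX2: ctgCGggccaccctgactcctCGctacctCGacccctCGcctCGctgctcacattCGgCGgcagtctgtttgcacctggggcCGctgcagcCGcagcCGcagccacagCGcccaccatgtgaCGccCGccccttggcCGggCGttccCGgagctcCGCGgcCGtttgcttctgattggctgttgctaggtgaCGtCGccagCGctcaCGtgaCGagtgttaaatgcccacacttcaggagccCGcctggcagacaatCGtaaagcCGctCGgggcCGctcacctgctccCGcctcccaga
PAX8: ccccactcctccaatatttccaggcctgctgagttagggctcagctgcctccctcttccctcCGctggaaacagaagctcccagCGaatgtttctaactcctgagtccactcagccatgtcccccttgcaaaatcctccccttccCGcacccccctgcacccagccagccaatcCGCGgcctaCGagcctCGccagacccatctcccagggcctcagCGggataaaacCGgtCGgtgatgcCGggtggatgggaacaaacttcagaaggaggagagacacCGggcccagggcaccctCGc

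RefSeq windows were matched for 29 of the 50 genes, 44 windows in all. Their median was 21 CpG, against 14 over all 35116 windows, and 70.5% of them held 15 or more, against 48.9% of all windows. The HOXC4 and HOXC5 windows were the same stretch, chr12:54016638-54016937 on the + strand. TAATTG, a site that some homeodomain proteins bind, was searched on both strands. It was in 2 member windows (4.55%, against 7.38% of all), those of HOXD10 and PAX9. TAATTA, which reads the same on both strands, was in 2 member windows (4.55%, against 4.84% of all), those of HOXD11 and MSX2. These counts describe letters in these windows only, and methylation was not analysed here.

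Most of these genes were not detected in the acini. Levels are given as log2 intensity after quantile normalization, and each probe set was set only against a background level, because probe sets bind with different strength. That level was the 95th percentile of 82 probe sets of genes specific to other tissues, such as liver, blood, heart and retina, and stood at 4.12 in Aza, 4.37 in AGA and 4.48 in vehicle. By this measure 17 of the 76 member probe sets were above background in Aza, 14 in AGA and 15 in vehicle. As shares these were 22.4%, 18.4% and 19.7%, against 56.3%, 53.8% and 52.9% of all probe sets. In 58 probe sets no group exceeded background, and 36 genes had no probe set that did. Of the members' values 10.7% lay under an intensity of 1, against 6.21% of all values.

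**Figure D1:**
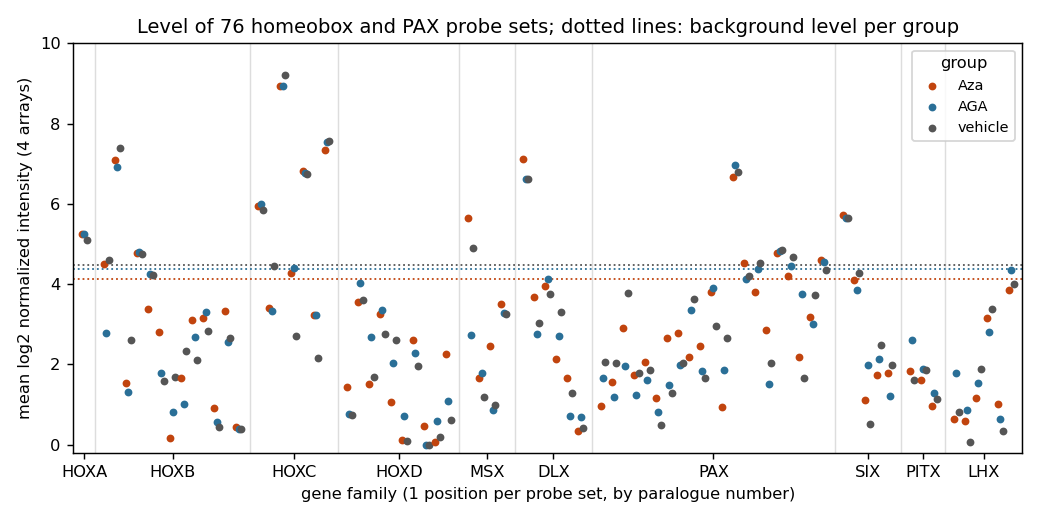
Mean log2 normalized intensity of each of the 76 member probe sets, by gene family, in Aza, AGA and vehicle (n = 4 arrays each), with the background level of each group as a dotted line. Points above their group's line are few (17, 14 and 15 probe sets in the 3 groups), and none belongs to HOXD, PITX or LHX.

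The arrays of replicate 4 stood apart from the others in all 3 groups, in 14.6% of all probe sets without overlap, and replicate number entered the fit as a block. Mammary epithelium markers were above background in 6 of 9 measured genes in Aza and in 7 of 9 in AGA and vehicle, while KRT19, a luminal keratin, was under an intensity of 1 on all arrays. Leukocyte (4 genes measured) and kidney (2) markers had no gene above background in any group, and neural (4) and thyroid (2) markers had 1 each. Fibroblast markers had 2 of 9 genes and endothelium markers 1 of 5 above background. Summed deposited intensity of the fibroblast list was 251 to 323 in Aza, 127 to 233 in AGA and 214 to 292 in vehicle, and that of the endothelium list 211 to 351, 83.4 to 238 and 156 to 420.

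Among the members, the HOXC cluster held most of the HOX genes that were detected. There 5 of its 7 genes were above background in at least 1 group, of 9 HOX genes in all. The rule left out probe sets with several symbols and kept HOXA2 alone of HOXA, so HOX genes outside the members were not examined. HOXC6, which has been linked to mammary development in mouse, read 8.38, 9.16, 9.04 and 9.13 in Aza, 8.59, 8.98, 8.77 and 9.42 in AGA, and 8.90, 9.34, 9.34 and 9.24 in vehicle. All 12 arrays lay far above background, and the 3 groups overlapped. HOXC13, known for its role in hair and nail, had 7.07, 7.14, 7.07 and 8.09 in Aza, 7.30, 7.03, 8.05 and 7.82 in AGA, and 7.40, 7.20, 7.52 and 8.18 in vehicle. HOXC10, a gene of the hindlimb and lumbar region, averaged 6.81 ± 0.42 in Aza, 6.78 ± 0.27 in AGA and 6.74 ± 0.63 in vehicle (SD, n = 4 each). HOXC4 averaged 5.96 ± 0.20 in Aza, 6.0 ± 0.28 in AGA and 5.85 ± 0.36 in vehicle (SD, n = 4 each). In these 4 genes the ranges of the groups overlapped. Aza was lower than vehicle in 4 of 4 same-number pairs in HOXC6 (-0.28 ± 0.14) and HOXC13 (-0.23 ± 0.20; SE, n = 4), and neither was called by limma (adjusted p = 0.913 and 0.939).

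HOXC8 was near background, at 3.96, 4.81, 4.28 and 4.06 in Aza, 4.70, 4.35, 3.68 and 4.89 in AGA, and 0.65, 3.41, 4.33 and 2.47 in vehicle. The Aza mean of 4.28 and the AGA mean of 4.41 were just above their group's background level and the vehicle mean of 2.72 was not, and the groups overlapped because vehicle 3 reached 4.33. HOXC5 and HOXC11 exceeded background in no group.

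In the HOXB cluster 3 of 9 genes were above background in some group. HOXB2, a hindbrain HOX gene, had 6.91, 7.74, 7.61 and 6.09 in Aza, 7.09, 7.16, 7.02 and 6.41 in AGA, and 7.63, 7.71, 7.82 and 6.41 in vehicle. Replicate 4 was the low array of every group. HOXB5 averaged 4.77 ± 0.16 in Aza, 4.80 ± 0.16 in AGA and 4.76 ± 0.39 in vehicle on probe set 205600_x_at (SD, n = 4 each), and its other probe set was not above background. HOXB1 read 4.54, 4.11, 4.25 and 5.09 in Aza, 0, 3.71, 3.55 and 3.87 in AGA, and 5.10, 4.85, 3.94 and 4.50 in vehicle. Every AGA array was therefore under the lowest Aza and vehicle array, with AGA 1 at the floor. HOXB3, HOXB6, HOXB7, HOXB8, HOXB9 and HOXB13 were above background in no group.

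HOXA2, the only HOXA gene among the members, averaged 5.26 ± 0.49 in Aza, 5.25 ± 0.25 in AGA and 5.11 ± 0.46 in vehicle (SD, n = 4 each). No HOXD probe set was above background, and the group means of the 10 lay between 0 and 4.04.

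Outside the HOX clusters, 9 of 45 probe sets were above background in some group, and they belonged to 5 genes. DLX2, on probe set 207147_at, had 7.68, 7.05, 7.61 and 6.15 in Aza, 6.94, 6.60, 6.71 and 6.23 in AGA, and 6.94, 7.06, 6.52 and 6.0 in vehicle. Aza held the highest values, but its range enclosed most of the others. SIX2, which keeps kidney progenitors undifferentiated, averaged 5.72 ± 0.91 in Aza, 5.64 ± 0.39 in AGA and 5.65 ± 1.03 in vehicle on probe set 206510_at (SD, n = 4 each). PAX9, a tooth and thymus regulator, lay near background. Its means of 4.61 in Aza and 4.56 in AGA were above their group's level, and that of 4.35 in vehicle was not. DLX4, DLX5, DLX6, MSX2, SIX3, SIX5, SIX6 and the 7 measured PITX and LHX genes were above background in no group.

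PAX8, a regulator of thyroid and kidney development, had 8 probe sets, of which 3 were above background in all groups and 5 in at least 1. The brightest, 121_at, had 6.34, 6.72, 7.10 and 6.56 in Aza, 6.76, 6.91, 7.01 and 7.15 in AGA, and 6.75, 6.97, 6.65 and 6.83 in vehicle. Its differences were 0.16 ± 0.16 for AGA minus vehicle, -0.12 ± 0.16 for Aza minus vehicle and -0.28 ± 0.16 for Aza minus AGA (SE, n = 4; limma adjusted p = 0.801, 0.962 and 0.642). The 8 probe sets did not move together. For AGA minus vehicle 2 were higher and 6 lower, from -0.70 to 2.09, where the largest came from 214528_s_at, a probe set under background in every group. For Aza minus vehicle 3 were higher and 5 lower, from -0.73 to 0.81, and for Aza minus AGA 3 were higher and 5 lower, from -1.58 to 1.35.

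MSX1, a homeobox gene that acts downstream of BMP signals, was low in AGA. Probe set 205932_s_at read 6.29, 4.59, 6.18 and 5.57 in Aza, 3.90, 1.33, 1.80 and 3.88 in AGA, and 5.03, 4.30, 4.90 and 5.41 in vehicle. All 4 AGA arrays were under the lowest array of the other groups and under background, while the Aza and vehicle means of 5.66 ± 0.78 and 4.91 ± 0.46 were above it (SD, n = 4 each). In bulk RNA, fewer cells of a type and less RNA per cell cannot be told apart.

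**Figure D2:**
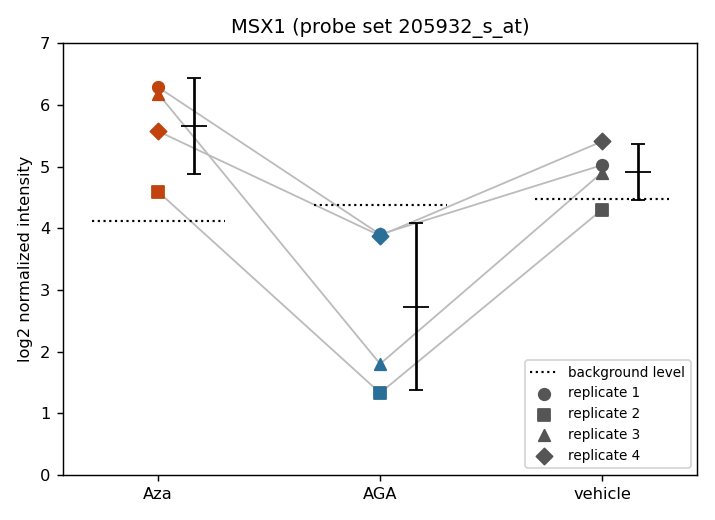
Log2 normalized intensity of MSX1 on each array in Aza, AGA and vehicle, with lines joining arrays of the same replicate number, the mean ± SD of each group (n = 4) beside its points and the background level of each group as a dotted line. All 4 AGA points (1.33 to 3.90) lie below the dotted line and below every Aza and vehicle point.

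Whether the MSX1 difference passed depended on how the spread was estimated. Aza minus AGA was 2.93 ± 0.44 (SE, n = 4), higher in 4 of 4 same-number pairs, with a limma adjusted p of 0.232 over all probe sets. With an intensity trend and a robust prior variance together, called the trend here, beside the replicate block it was called (limma adjusted p = 0.00187), and with the trend but no block it was not (0.258). It was also called with the intensity trend and a prior that was not robust (limma adjusted p = 0.0149), and not with the robust prior and no intensity trend (0.265). AGA minus vehicle was -2.18 ± 0.44 (SE, n = 4), lower in 4 of 4 pairs, with a limma adjusted p of 0.409, against 0.0198 with block and trend and 0.780 with the trend and no block. Beside the block, neither the intensity trend (limma adjusted p = 0.0696) nor the robust prior (0.472) gave this call on its own. Aza minus vehicle was 0.75 ± 0.44, higher in 4 of 4 pairs and not called in any of these fits (limma adjusted p = 0.926). Pairs that all go 1 way are common, in 17.5% of all probe sets for Aza minus AGA, 18.2% for AGA minus vehicle and 14.7% for Aza minus vehicle, beside 6.58%, 9.21% and 18.4% of members.

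With block and trend, the Aza minus AGA call held in 12 of 12 fits without 1 array (limma adjusted p from 0.00221 to 0.0248) and in 4 of 4 without a replicate number. The AGA minus vehicle call held in 7 of 12 and was lost without vehicle 2, 3 or 4 or AGA 2 or 3 (limma adjusted p up to 0.123). It held in 1 of 4 fits without a replicate number and was lost without replicate 2, 3 or 4. Without replicate 4 the differences were 3.34 for Aza minus AGA and -2.40 for AGA minus vehicle.

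Because MSX1 in AGA was under background, its fold there is only bounded. By group means set against the AGA background level, it was at least 2.44-fold higher in Aza than in AGA and at least 1.45-fold higher in vehicle than in AGA. These bounds make no allowance for the spread between arrays. With intensities under 16 set to 16, the differences shrank to 1.66 for Aza minus AGA and -0.91 for AGA minus vehicle.

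The summed intensity of the fibroblast list was also lower in AGA than in Aza without overlap, and overlapped that of vehicle. For Aza minus AGA, 5 of the list's 23 probe sets were higher and 0 lower at an unadjusted p of 0.05, with a median of 0.34. Over all probe sets 9.12% passed that threshold in either direction. The lowest p-values of the list all came from the proteoglycan gene DCN, on 211813_x_at, 201893_x_at and 211896_s_at, so the count is not one of separate genes. DCN averaged 5.94 in Aza, 4.47 in AGA and 4.63 in vehicle on probe set 201893_x_at, and Aza minus AGA was 1.47 ± 0.28 (SE, n = 4; limma adjusted p = 0.232, and 0.0162 with block and trend). LUM, another matrix gene of fibroblasts, was under an intensity of 1 on all 4 AGA arrays. The mammary epithelium list went the other way, with a median of -0.42 for Aza minus AGA over 13 probe sets. At an unadjusted p of 0.05 it had 0 higher and 2 lower. Among endothelium markers, KDR averaged 7.89 in Aza and 7.15 in AGA, by 0.75 ± 0.17 (SE, n = 4; limma adjusted p = 0.298, and 0.0130 with block and trend). KDR was the only endothelium marker above background, and the list's 8 probe sets had a median of -0.28 for Aza minus AGA, with 1 higher and 1 lower at an unadjusted p of 0.05, the lower one VWF (-1.18 ± 0.42; SE, n = 4; limma adjusted p = 0.505). The deposited intensities of all probe sets were also lower in AGA, with a median of 0.18 for Aza minus AGA and -0.24 for AGA minus vehicle before normalization. The part of these markers in the MSX1 difference was not tested.

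The paralogue MSX2 was above background in no group, and its 3 probe sets differed by -0.13 to 1.60 for Aza minus AGA, 2 higher and 1 lower, none called.

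In the comparison of AGA with vehicle, 0 of 76 members were called by limma at an adjusted p of 0.05, beside 0.009% of all probe sets. With block and trend 1 member was called, MSX1, beside 0.711%. At an unadjusted p of 0.05 the members' share was 9.21% (7 of 76), near the 9.53% of all probe sets. The 7 were MSX1, PAX2 (206229_x_at, -1.82 ± 0.46), HOXB3 (-1.30 ± 0.39), PAX8 (214528_s_at, 2.09 ± 0.73), SIX3 (1.46 ± 0.57), HOXC8 (1.69 ± 0.67) and HOXB2 (-0.47 ± 0.19; SE, n = 4 each). Of these only HOXB2 was above background in both groups. The AGA and vehicle arrays did not overlap in 3 members, HOXB1, HOXB3 and MSX1, all lower in AGA, which is 3.95% beside 2.53% of all probe sets in either direction and 1.3% in this one.

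Aza minus vehicle gave 0 called members by limma, beside 0% of all probe sets, and 0 with block and trend, beside 0.0045%. At an unadjusted p of 0.05 there were 8 of 76 (10.5%, beside 5.4%). DLX2 (0.49 ± 0.21) was the only one of the 8 above background, with a limma adjusted p of 0.912. The others were PAX4 (207867_at, 1.37 ± 0.54), HOXD9 (205605_at, -1.55 ± 0.40), PAX7 (-1.71 ± 0.55), HOXB3 (-1.06 ± 0.39), HOXB6 (205366_s_at, -1.50 ± 0.56), PAX5 (-1.46 ± 0.59) and HOXB5 (205601_s_at, -0.85 ± 0.35; SE, n = 4 each). Arrays did not overlap in 1 member, HOXB5 on that probe set, which is 1.32% beside 1.72%. Its brighter probe set, 205600_x_at, differed by 0.01 ± 0.19.

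Between the drugs, Aza minus AGA gave 0 called members by limma beside 0.009% of all probe sets, and MSX1 alone with block and trend beside 0.86%. At an unadjusted p of 0.05 there were 5 of 76 (6.58%, beside 9.12%). These were MSX1, PAX4 (211176_s_at, 0.80 ± 0.32), HOXB5 (205601_s_at, -0.87 ± 0.35), HOXD9 (205605_at, -0.98 ± 0.40) and DLX2 (207147_at, 0.50 ± 0.21; SE, n = 4 each). Arrays did not overlap in HOXB1 and MSX1, both higher in Aza, which is 2.63% beside 2.59% in either direction and 1.25% in this one. HOXB1 differed by 1.72 ± 0.79 (SE, n = 4; limma adjusted p = 0.572). Its Aza mean was 1.09-fold the AGA background level, with no allowance for the spread between arrays.

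Both drugs together against vehicle, the polarity comparison of the series, gave 0 called members by limma beside 0% of all probe sets, with 6 of 76 at an unadjusted p of 0.05 (7.89%, beside 6.69%). The 6 with the lowest p were HOXB3 (-1.18), PAX2 (206229_x_at, -1.35), HOXD9 (205605_at, -1.06), HOXC8 (1.62), PAX7 (-1.25) and HOXB6 (205366_s_at, -1.18), none of them above background in all groups. In 0 members did the 8 treated arrays lie apart from the vehicle arrays, beside 0.23% of all probe sets. The comparisons with vehicle share the vehicle arrays, so their differences are not independent.

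**Figure D3:**
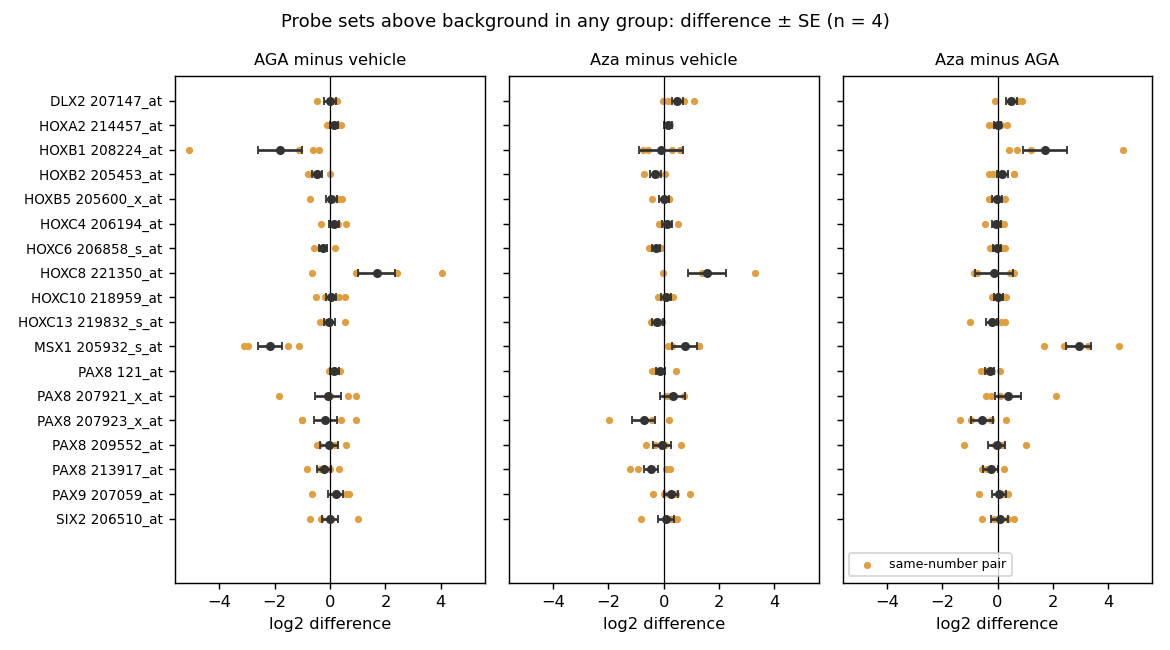
Log2 difference of the 18 member probe sets above background in any group, for AGA minus vehicle, Aza minus vehicle and Aza minus AGA, as the fitted difference ± SE (dark, n = 4) and the 4 same-number pairs (orange). MSX1 stands at -2.18 and 2.93 in the comparisons with AGA, and the 12 probe sets above background in all groups stay between -0.47 and 0.50. Among the rest, HOXB1 (means of 4.50 in Aza, 2.78 in AGA and 4.60 in vehicle) and HOXC8 (4.28, 4.41 and 2.72) also differed widely.

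The 12 probe sets above background in all 3 groups (DLX2, HOXA2, HOXB2, HOXB5, HOXC4, HOXC6, HOXC10, HOXC13, SIX2 and 3 of PAX8) had small differences. They ran from -0.47 (HOXB2) to 0.16 (PAX8) for AGA minus vehicle, from -0.46 (PAX8) to 0.49 (DLX2) for Aza minus vehicle and from -0.28 (PAX8) to 0.50 (DLX2) for Aza minus AGA. Their SEs were 0.13 to 0.32, with a median of 0.19. For the 58 under background in every group the median SE was 0.65, so only large differences could have been resolved there. Over all 76 members the median difference was 0.01 for AGA minus vehicle, 0.06 for Aza minus vehicle and 0.02 for Aza minus AGA, beside 0.00 over all probe sets in each. Of the 17 genes with several probe sets, all probe sets shared a sign in 7, 4 and 10 in these comparisons.

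Replicate number was called in a smaller share of members than of all probe sets. By limma's F test it was called in 5 of 76 members (6.58%), beside 9.64% of all probe sets. These were HOXA2, HOXB2, HOXB13, HOXD9 (205605_at) and MSX2 (210319_x_at). Of them, HOXB13, HOXD9 and MSX2 were above background in no group. With the trend 8 were called (10.5%, beside 23.8%), namely HOXB2, MSX1, SIX2, HOXC6, DLX2, HOXA2, HOXC10 and HOXC13. HOXB2 averaged 7.21, 7.54, 7.48 and 6.30 over the arrays of replicates 1 to 4, and SIX2 (206510_at) 6.01, 5.69, 6.35 and 4.64. All replicate 4 arrays were below all others in 4 members, DLX2, HOXB2, HOXC10 and SIX2, and above them in 1, MSX2 (210319_x_at). Together that is 6.58% of members, beside 14.6% of all probe sets. Without replicate 4 neither a member nor any other probe set was called for replicate number.

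**Figure D4:**
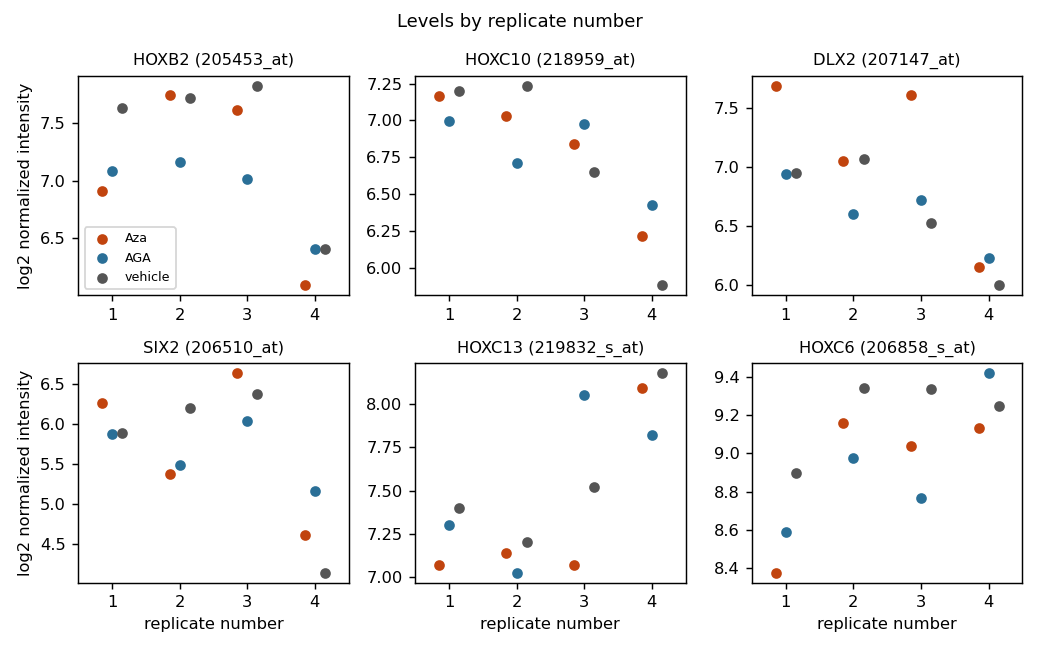
Log2 normalized intensity of 6 detected members against replicate number, with the Aza, AGA and vehicle arrays as coloured points (1 array per point). The 3 replicate 4 arrays lie below all others in HOXB2, HOXC10, DLX2 and SIX2, but not in HOXC13 or HOXC6.

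Genes that act with these factors were given by the same fit, and in every list 0 probe sets were called by limma in any comparison. BMP pathway genes, upstream of MSX1, were above background in 12 of 20 measured genes. The inhibitory SMAD6 averaged 1.48 in AGA and 3.91 in vehicle, a difference of -2.43 ± 0.55. ID4, a BMP target, averaged 1.52 in AGA and 3.34 in vehicle (-1.83 ± 0.59). Neither was above background. In Aza, SMAD6 averaged 2.04, also lower than vehicle (-1.87 ± 0.55, SE, n = 4), while ID4 averaged 3.66. The ligand BMP2 averaged 4.76 in AGA and 3.66 in vehicle, under background there, on probe set 205290_s_at (1.10 ± 0.36; SE, n = 4; limma adjusted p = 0.464). In Aza, BMP2 averaged 4.66 on that probe set, also higher than vehicle (1.00 ± 0.36, SE, n = 4). Another BMP2 probe set, 205289_at, was above background in vehicle, at 5.38. It averaged 6.08 over both drugs together, a smaller difference from vehicle (0.70 ± 0.27, SE; limma adjusted p = 0.733). At an unadjusted p of 0.05 the list had 2 probe sets higher and 3 lower of 39 for AGA minus vehicle. Its median difference was 0.06. For Aza minus vehicle it had 3 higher and 1 lower, with a median of 0.03.

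HOX cofactors, the TALE proteins that bind DNA with HOX factors, were above background in 7 of 8 measured genes. MEIS1 averaged 6.42 in AGA and 7.01 in vehicle, a difference of -0.59 ± 0.25 (SE, n = 4; limma adjusted p = 0.517). Polycomb genes were above background in 19 of 20, and EZH2, its methyltransferase, averaged 5.81 in AGA and 6.18 in vehicle (-0.37 ± 0.13; SE, n = 4; limma adjusted p = 0.473). Trithorax and MLL genes, which oppose Polycomb, were above background in 11 of 12, and the demethylase KDM6B averaged 5.51 in AGA and 6.10 in vehicle (-0.59 ± 0.15; SE, n = 4; limma adjusted p = 0.427). Aza was also lower than vehicle in EZH2, at 5.89 (-0.29 ± 0.13), and in KDM6B, at 5.67 (-0.44 ± 0.15, SE, n = 4). MEIS1 averaged 6.92 in Aza. Median differences for AGA minus vehicle were -0.37, -0.04 and -0.16 in these 3 lists, beside 0.00 over all probe sets.

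Retinoic acid genes, which set HOX expression in the embryo, were above background in 11 of 19. The retinol carrier RBP4 averaged 5.43 in Aza and 3.91 in AGA, against 4.67 in vehicle. Aza minus AGA was 1.52 ± 0.24 (SE, n = 4; limma adjusted p = 0.232), and 0.0168 with block and trend, the only call in this list in that fit. Its AGA mean was under background. With AGA arrays under that level set to it, the group means put RBP4 at least 1.53-fold higher in Aza than in AGA, with no allowance for the spread. Partners and targets of PAX8 and of SIX-family factors were above background in 3 of 13, with EYA1, which binds SIX-family proteins, at 4.79 in AGA and 5.40 in vehicle (-0.61 ± 0.23; SE, n = 4; limma adjusted p = 0.494). EYA1 averaged 4.82 in Aza, also lower than vehicle (-0.58 ± 0.23, SE, n = 4). Other homeobox genes were above background in 12 of 39. Among them ONECUT2 averaged 3.51 in Aza and 1.87 in AGA, against 3.55 in vehicle, all under background, and Aza minus AGA was 1.64 ± 0.25 (SE, n = 4; limma adjusted p = 0.232, and 0.235 with block and trend). ZEB2 averaged 5.89 in AGA and 6.50 in vehicle (-0.61 ± 0.20; SE, n = 4; limma adjusted p = 0.457).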

How the data were processed

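The deposited values are intensities per probe set on a linear scale, made by the authors with GCOS, the Affymetrix operating software, per the submitters' processing notes; its algorithm and scaling, the annotation used and any detection calls are not given in the sources used here. Labelling took 2.25 µg of RNA from each sample, per the labels' protocols, and each sample had its own array. The number of arrays limits the precision.

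Intensities under 1 were set to 1, log2 was taken and the arrays were quantile normalized. Of 22277 probe sets, 62 controls were dropped. Symbols came from the platform annotation, in which 19064 probe sets carried 1 symbol, 1043 several and 2108 none. All 50 member symbols matched RefSeq GRCh38.p14. The model, fitted to all 12 arrays at once with limma's lmFit and eBayes (version 3.58.1, R 4.3.3; two-sided tests), held group and replicate number, since the rule for these genes pairs the groups by number. P-values were adjusted by Benjamini-Hochberg over the 22215 probe sets, with a threshold of 0.05. Alternatives were no replicate block, an intensity trend with a robust prior, other scales, a floor of 16, dim probe sets left out, Holm's adjustment and leave-outs; combinations with the trend, and the trend and robust prior apart, were added after seeing the data.

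Over all probe sets, the deviations of same-numbered arrays from their group means correlated at 0.0589 to 0.261, over 0.1 in 6 of 12 pairs, against at most 0.0292 for different numbers. Over the brighter probe sets the 12 pairs ran from 0.368 to 0.781. Pairs of different numbers reached 0.182 there, over 0.1 in 5 of 36. The labels give only the numbers. On simulated data for AGA minus vehicle (22215 probe sets), the fit without trend recovered 68 of 100 changes of 1 on the log2 scale. It recovered 99 of 100 changes of 2, and with trend the counts were 94 and 100. Unchanged probe sets called were 13 without trend and 3 with it. The simulated spread depended on level alone, as the intensity trend assumes. Changes were placed only in probe sets above the median level. Recovery was not counted apart for the members. Of the 76 member probe sets, 11 had a mean level at or above the median of all. The simulated counts therefore do not show which fit is better for these data, for MSX1 or for the other members.

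The background list held 60 genes of other tissues, of which 49 had a probe set. The rule named every member past the adjusted threshold with or without trend, the 6 with the lowest p per comparison, all MSX1 and PAX8 probe sets, and levels of genes above background; further members at an unadjusted p of 0.05 or with groups that did not overlap were added afterwards. Members, lists and settings were chosen with earlier results of these data known. A probe set whose sequence also fits a related gene, as those ending in x_at can, may measure both; 10 members end so.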

Additional observations from a re-analysis of the deposited data

Results flagged for a closer look

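PAX5, on probe set 206802_at, stood far from its group on 1 array. Aza 4 read 4.10, where the other Aza arrays read 1.47 to 1.62, so the Aza minus vehicle difference of -1.46 rests on the other 3 arrays. All of these Aza values were under background.

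PAX4, on probe set 207867_at, had 3.89 on Aza 2, against 2.15 to 2.44 on the other Aza arrays, also under background. These 2 values came from 63 groups of 4 checked for 21 named probe sets, and chance alone gives about 1 in 20.

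MSX1 lay above vehicle in Aza and below it in AGA in 4 of 4 same-number pairs each, though Aza minus vehicle was called in no fit (0.75 ± 0.44; SE, n = 4; limma adjusted p = 0.926). Aza minus AGA was 2.93 (limma adjusted p = 0.232, and 0.00187 with block and trend), which does not test whether the 2 drugs act in opposite directions. The part of the fibroblast and endothelium markers was not tested.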

How the results depend on the processing

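The counts of called members stayed at 0 in the replicate block fit on every scale, floor, filter and leave-out and without the replicate block. With the trend, which joins an intensity trend and a robust prior, they changed for AGA minus vehicle and Aza minus AGA, and stayed at 0 for the other comparisons; with the intensity trend alone they were 0 and 1, and with the robust prior alone 0 and 0. AGA minus vehicle called 2 of all probe sets, but 158 with the trend and 0 on the deposited scale, with median-centred arrays, a floor of 16, dim probe sets left out or Holm's adjustment, and 0 to 1 in leave-outs; members went to 1 with the trend, 2 with trend on the deposited scale (HOXB2, -0.73, adjusted p = 0.0438, beside MSX1), 1 with median-centred arrays and trend, and 0 to 1 in leave-outs with trend. Aza minus vehicle called 0, but 2 without the replicate block, 1 with the trend and 0 to 1 in leave-outs. Aza minus AGA called 2, but 191 with the trend, 0 with median-centred arrays, 4 at a floor of 16, 83 with dim probe sets left out (fewer probe sets tested) and 0 to 2 in leave-outs; members went to 1 with the trend on all 3 scales and in all leave-outs with trend, but 0 with the trend and no replicate block or with dim probe sets left out, which removes MSX1. Both drugs minus vehicle called 0, but 1 without the replicate block and 0 to 1 in leave-outs. Replicate number called 2141, but 5286 with the trend, 370 on the deposited scale and 0 without replicate 4; members 5, 8, 0 and 0. At the 90th percentile 23 members were above background in Aza, 23 in AGA and 25 in vehicle. MSX1 kept its sign in every setting tried. The cause of these shifts was not tested.

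Signs turned only for PAX8 probe sets, none called. For AGA minus vehicle 121_at was -0.12 on the deposited scale and 207921_x_at 0.38 at a floor of 16; for Aza minus AGA 207921_x_at was -0.10 and 221990_at -0.040 at a floor of 16, and 209552_at 0.14 on the deposited scale; for both drugs minus vehicle, on the deposited scale, 121_at was -0.16, 207921_x_at -0.037 and 207924_x_at -0.0095. In leave-outs, AGA minus vehicle ran from -0.41 to 0.53 (207921_x_at), -0.54 to 0.18 (207923_x_at), -0.33 to 0.21 (209552_at), -0.39 to 0.018 (213917_at) and -1.09 to 0.047 (221990_at); Aza minus vehicle from -0.36 to 0.23 (209552_at) and -0.30 to 1.15 (214528_s_at); Aza minus AGA from -0.20 to 0.66 (207921_x_at), -0.39 to 0.36 (209552_at) and -0.43 to 0.46 (221990_at); both drugs minus vehicle from -0.11 to 0.092 (121_at), -0.11 to 0.43 (207921_x_at), -0.43 to 0.53 (207924_x_at) and -0.20 to 0.10 (209552_at). Of 1334 differences of named members under other settings, 1247 kept sign and call, 31 became called and 56 turned sign; 13 more were 0 at the floor of 16, with no sign. Levels under background carry little signal, which limits 58 of the 76 probe sets.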
